A study of Mus musculus with 5 samples.

Results

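The results concern DNA methylation around 8 genes of the myeloid programme in mouse blood stem and progenitor cells: the regulators Spi1, Irf8, Cebpb and Cebpe, the growth factor receptor Csf1r, and the granule protein genes Mpo, Prtn3 and Elane. The CpGs were taken from 7 fixed windows of the mm9 genome, from 10 to 40 kb long, with Prtn3 and Elane sharing a window because they are neighbours. Of the 1029293 autosomal CpGs used, those measured in every library less the positions of highest coverage, 389 lay in these windows; 433 window CpGs were measured in at least 1 library. The windows are chr2:90920000-90960000 for Spi1, chr8:123255000-123285000 for Irf8, chr18:61260000-61295000 for Csf1r, chr2:167510000-167520000 for Cebpb, chr14:55325000-55336000 for Cebpe, chr11:87603000-87622000 for Mpo and chr10:79338000-79354000 for Prtn3 and Elane.

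The assay was ERRBS (enhanced reduced representation bisulfite sequencing), which reads fragments cut by the enzyme MspI at CCGG and so favours CpG-rich DNA. After bisulfite treatment a methylated cytosine appears as C in the reads and an unmethylated one as T. The cells were bone marrow LSK cells (Lin- Sca1+ cKit+), the fraction that holds blood stem cells and multipotent progenitors, from C57BL/6 mice. There were 3 wild-type libraries and 2 whose titles read KO but whose genotype label is heterozygous (+/-). The latter are called targeted, and the number of alleles lost is not settled by the labels. Neither age nor sex is given for these 5 libraries. The labels name no separate animals within a group, and p-values therefore reflect the spread among these libraries alone, which may be technical. Levels are given for targeted libraries 1 and 2 first, and then against wild-type libraries 1, 2 and 3, in that order. No RNA was measured in these tables, so the cell label could not be checked against its marker genes.

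Spi1 encodes PU.1, the ETS factor that directs progenitors towards myeloid and B-cell fates. Irf8 is its partner in monocyte and dendritic cell development, Cebpb and Cebpe encode C/EBP factors of emergency and late granulocyte formation, and Csf1r encodes the receptor for the macrophage growth factor. Mpo (myeloperoxidase), Prtn3 (proteinase 3) and Elane (neutrophil elastase) are made in granulocyte precursors and stored in primary granules. CpG-rich promoters are usually unmethylated whether or not the gene is active, while CpG-poor promoters and enhancers often lose methylation as a lineage forms.

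Promoter sequences are shown for the CpGs and motifs that they hold near the gene start. They run from 250 bases before to 50 bases after the gene start and come from RefSeq (table build GRCm38.p6); 5 of the 8 genes had an entry, and those of Spi1, Csf1r and Cebpe are not shown. The Irf8 and Cebpb promoters were placed in mm9 by their CpG spacing. For Irf8 all 14 window CpGs measured inside the placed stretch fell on a CG of the sequence, against 5 at the next best offset, and for Cebpb all 42 did, against 3. They lie at chr8:123260008-123260307 and chr2:167514165-167514464, both on the forward strand. Capitals mark CpGs measured in all 5 libraries.
Irf8: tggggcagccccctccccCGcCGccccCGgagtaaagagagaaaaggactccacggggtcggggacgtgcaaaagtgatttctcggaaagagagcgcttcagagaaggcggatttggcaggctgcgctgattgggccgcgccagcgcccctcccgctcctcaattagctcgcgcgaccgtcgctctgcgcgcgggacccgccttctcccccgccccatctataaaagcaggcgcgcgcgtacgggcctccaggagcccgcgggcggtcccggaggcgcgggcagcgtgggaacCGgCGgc
Cebpb: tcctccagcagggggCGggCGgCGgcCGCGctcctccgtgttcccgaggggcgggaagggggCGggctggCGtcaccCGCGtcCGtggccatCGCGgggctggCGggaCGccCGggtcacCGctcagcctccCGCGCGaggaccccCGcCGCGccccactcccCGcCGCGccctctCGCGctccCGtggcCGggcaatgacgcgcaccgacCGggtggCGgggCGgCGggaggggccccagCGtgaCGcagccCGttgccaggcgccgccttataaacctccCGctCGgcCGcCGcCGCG

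The granule gene promoters are shown for contrast. They hold 2 (Mpo), 4 (Prtn3) and 6 (Elane) CpGs, against 38 in the Irf8 promoter shown, 50 in Cebpb and a median of 7 over 32851 RefSeq promoters of the same length. RefSeq gives Irf8 a second start, whose promoter holds 8 CpGs and is not shown. A promoter was placed in mm9 only where at least 10 measured CpGs matched it. That promoter and the granule gene promoters hold fewer CpGs than this, so they could not be placed. Whether ERRBS read their start sites was not determined. Capitals mark GAGGAA on either strand, the core of sites for PU.1-like ETS factors.
Mpo: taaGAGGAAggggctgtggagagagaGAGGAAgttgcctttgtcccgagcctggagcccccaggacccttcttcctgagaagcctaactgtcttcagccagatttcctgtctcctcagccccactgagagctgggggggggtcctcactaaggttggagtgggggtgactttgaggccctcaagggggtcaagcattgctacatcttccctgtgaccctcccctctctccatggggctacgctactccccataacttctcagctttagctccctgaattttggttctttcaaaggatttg
Prtn3: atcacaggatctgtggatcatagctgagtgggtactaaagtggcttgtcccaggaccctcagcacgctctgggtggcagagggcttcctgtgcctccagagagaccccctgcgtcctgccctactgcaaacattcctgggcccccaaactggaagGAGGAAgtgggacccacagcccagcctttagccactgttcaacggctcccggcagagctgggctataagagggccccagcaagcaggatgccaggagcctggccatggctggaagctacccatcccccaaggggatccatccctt
Elane: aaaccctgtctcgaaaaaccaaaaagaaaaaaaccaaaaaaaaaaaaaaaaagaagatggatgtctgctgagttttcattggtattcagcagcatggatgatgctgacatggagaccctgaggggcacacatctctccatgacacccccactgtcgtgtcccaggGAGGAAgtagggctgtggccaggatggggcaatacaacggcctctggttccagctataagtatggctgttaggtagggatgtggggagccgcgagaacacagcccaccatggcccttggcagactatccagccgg

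GAGGAA occurred 2 times in the Mpo promoter and 1 time each in those of Prtn3 and Elane, but in neither Irf8 promoter nor that of Cebpb; 28.3% of all promoters hold it. The MspI site CCGG occurred 3 times each in the Irf8 promoter shown and in Cebpb, 1 time each in Prtn3 and Elane, and not in Mpo or the second Irf8 promoter, and 52.8% of all promoters hold it. Neither TTNCNNAA, a C/EBP-like pattern held by 40.7% of promoters, nor TGTGGT, a RUNX-like pattern held by 16.8%, was found in these 6 promoters. All motifs were searched on both strands, and no GAGGAA overlapped a CCGG. A match describes the letters only.

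Across the 7 windows the mean level of the measured CpGs ranged from low to almost fully methylated. These means depend on which CpGs were measured and are not levels of whole genes. Of the 193 Cebpb CpGs 173 lay in 1 run of 1612 bp, and the 17 Cebpe CpGs lay in 342 bp. The mean level in wild-type cells was 7.39% ± 0.159 (SD, n = 3) for Cebpb, 37.3% ± 0.701 for Prtn3 and Elane, 49.1% ± 0.629 for Spi1, 54.3% ± 0.551 for Irf8, 82.1% ± 0.976 for Csf1r, 91.7% ± 0.640 for Mpo and 93.0% ± 1.02 for Cebpe. Neighbours in this order lie further apart than their spread except Mpo and Cebpe, whose library values overlap. The mix of low and high CpGs differed between windows: 176 of the 193 Cebpb CpGs were under 20%, while none of the 17 Cebpe or 15 Mpo CpGs was. Of all 389 CpGs, 60.9% were under 20%, 5.91% from 20 to 80% and 33.2% at 80% or more, close to the 61.2%, 6.68% and 32.2% of all autosomal CpGs measured. Median coverage per CpG and library was 52 to 121.5 reads by window, with extremes of 10 and 482.

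**Figure D1:**
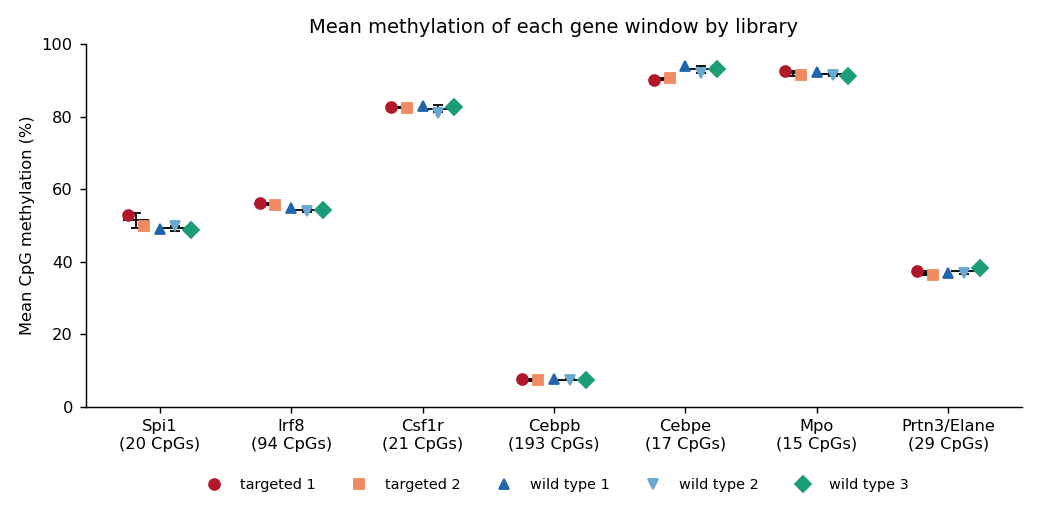
Mean CpG methylation (percent, axis from 0) of each gene window in the 2 targeted and 3 wild-type libraries, with group means and SD as black bars; the number of CpGs stands under each name. Libraries lie close together in every window, from about 7% in Cebpb to over 90% in Cebpe and Mpo.

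Spi1 had a low stretch, a partly methylated stretch and methylated stretches, and all 5 libraries shared this layout. The low stretch held 7 CpGs from 90936689 to 90937352. Its tile from 90937001 (1000 bp, 5 of these CpGs) was at 1.44% and 0% against 0.0887%, 0.347% and 0.407%. The 0% rests on 1246 counts summed over the 5 CpGs, which would allow up to 0.241% if independent. A read that covers several of them is counted for each. The groups overlapped in this tile (edgeR adjusted p = 0.873). At 90936689, the edge of the stretch, the levels were uneven, at 17.9% and 0% against 12.0%, 0% and 4.08%, on 22 to 49 reads. Spi1 is known to have an upstream enhancer besides its promoter; which stretch lies in either was not determined.

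In the partly methylated stretch of Spi1, 3 CpGs from 90926516 to 90926611, levels fell along the DNA, except between the first 2 CpGs in wild-type library 1. At 90926516 the levels were 80.6% and 64.9% against 41.7%, 87.5% and 52.8%, on 24 to 53 reads. At 90926569 they were 51.8% and 54.6% against 42.8%, 50.7% and 43.5%, and at 90926611 29.1% and 12.3% against 18.9%, 12.1% and 26.2%. Only the second of these CpGs separated the groups, with both targeted libraries higher. The tile was at 40.8% ± 5.78 (SD, n = 2) against 34.7% ± 2.45 (SD, n = 3), a difference of 6.16 percentage points that did not pass the test (edgeR adjusted p = 0.828), and was 2.08 points without targeted library 1 and 10.2 points without targeted library 2.

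Methylated CpGs of Spi1 lay at 90929974 to 90930035 and at 90958354 to 90958435. The tile from 90958001 was at 97.4% and 96.1% against 96.6%, 93.0% and 93.4%. Its unadjusted p of 0.0492 was 1 of 2 under 0.05 in the 33 window tiles, and its adjusted p was 0.790; the groups overlapped. A lone low CpG at 90955616 had 0% to 3.03%, although its neighbours 27 and 46 bp away had 93.4% to 100%. It was read on the reverse strand only, so its strands could not be compared. The tile that holds it, from 90955001, was at 64.3% and 65.6% against 64.0%, 63.4% and 63.4%, both targeted libraries higher without passing the test (edgeR adjusted p = 0.971). The Spi1 CpG with the smallest p, 90958354, was at 98.7% and 98.5% against 96.2%, 96.3% and 96.0%, again both higher (edgeR adjusted p = 0.876).

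The Irf8 window opened with a promoter unmethylated at the CpGs measured, and a single CpG 692 bp after the gene start was methylated. In the placed promoter, 5 CpGs were measured in all libraries, at positions -232, -229, -223, 43 and 46, and those between were not. Summed over these CpGs, the targeted libraries had 0 methylated of 173 and of 480 counts, which would allow up to 1.73% and 0.625% if independent. A read that covers several of these CpGs is counted for each, so the limits are wider. In the wild-type libraries the counts were 2 of 384, 1 of 391 and 0 of 257. From position -351 to 447 relative to the start, 23 CpGs averaged 1.69% and 1.36% against 1.84%, 1.16% and 0.992%, which overlap. Further in, methylation rose to 34.0% ± 8.24 (SD, n = 2) against 20.6% ± 2.53 (SD, n = 3) at 551 bp and to 88.4% ± 9.32 against 87.1% ± 10.6 at 692 bp. At 551 bp the libraries were at 39.8% and 28.2% against 22.4%, 17.7% and 21.7%, so both targeted libraries were higher, a difference of 13.4 points that did not pass the test (edgeR adjusted p = 0.876).

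At the CpGs measured beyond its start region, Irf8 was methylated with separate gaps. The 12 CpGs 3397 to 3588 bp after the start averaged 93.2% to 96.3% in the 5 libraries. Low CpGs reappeared at 7280 bp, where a lone CpG had 0% and 0% against 0%, 3.70% and 0% on 18 to 53 reads. They also did so at 15907 to 15975 bp, where 4 CpGs averaged 1.98% and 0.653% against 1.79%, 1.43% and 0.34%. A further 3 low CpGs, at 24142 to 24515 bp, averaged 0.758% to 2.01% in the 5 libraries. An intermediate tile from 123269001, with 3 CpGs 8977 to 9097 bp after the start, had 29.6% and 26.5% against 26.3%, 11.4% and 20.1%, so both targeted libraries were higher. Its difference of 8.79 points was the largest of any window tile with all libraries in and did not pass the test (edgeR adjusted p = 0.809). It was 4.85 points without wild-type library 2, below the 6.55 points of the Spi1 tile from 90926001 in the same fit. Counts in this tile were 81 to 134 per library.

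**Figure D2:**
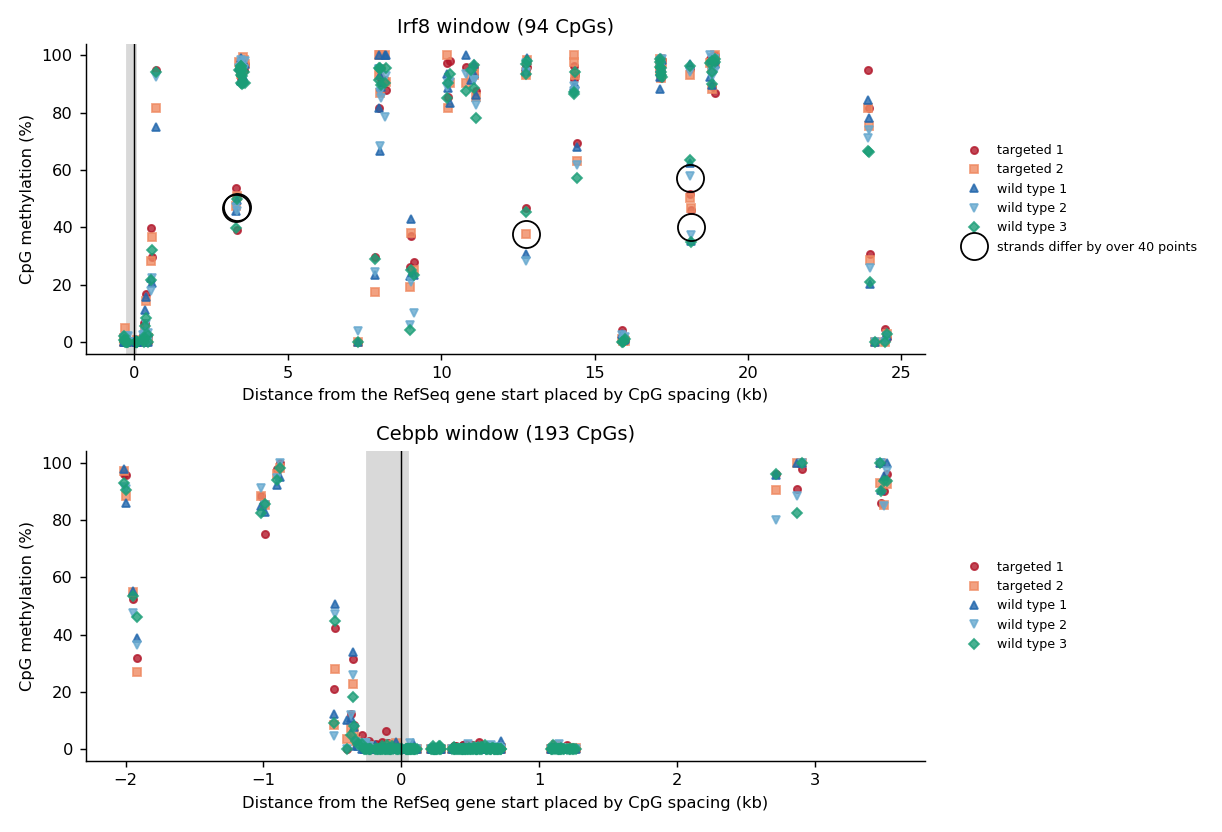
Methylation (percent) of every CpG measured in all libraries in the Irf8 and Cebpb windows against distance (kb) from the RefSeq gene start placed by CpG spacing; each library has its own symbol, the grey band marks the printed promoter, and rings mark the 5 Irf8 CpGs whose strands differ. The CpGs measured in both promoters sit near 0% in all libraries, and the levels rise to over 80% on both sides in Cebpb and after the start in Irf8.

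Intermediate levels in Irf8 were partly a matter of strand. At 5 Irf8 CpGs that average 37.8% to 57.1% with strands merged, 1 strand was almost fully methylated and the other almost unmethylated in every library. At 123263565 the forward strand had 85.4% to 96.5% and the reverse strand 0% to 3.85%, while at 123263613, 48 bp on, the forward strand had 0% to 2.70% and the reverse strand 88.6% to 96.6%. The same crossed pattern held at 123278363 and 123278412, 49 bp apart: forward 98.4% to 100% and 0% to 3.05%, reverse 0% to 3.64% and 90.2% to 94.8%. At 123273010 the forward strand had 81.2% to 100% and the reverse strand 0% to 3.05%, and the last CpG of that group lies 48 bp on. These distances are just under the read length of 50 bp; whether read ends bear on the pattern was not tested.

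Over all autosomal CpGs read on both strands in every library, 7725 of 265935 (2.90%) had strands more than 40 points apart, against 5 of 94 (5.32%) in the windows. Such a CpG takes its merged level from the share of reads on each strand. At 123278363 the merged level was 51.7% and 50.2% against 62.4%, 58.0% and 63.5%, which do not overlap. The forward strand gave 51.7% and 50.2% of its reads against 62.7%, 58.4% and 62.8%, while the levels of the groups overlapped within each strand. At 123278412 the merged levels separated the other way, at 46.2% and 46.9% against 35.4%, 37.4% and 34.9%. Of the 23 window CpGs from 20 to 80%, 5 were of this kind, 3 had strands within 40 points and 15 lacked a strand in at least 1 library.

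**Figure D3:**
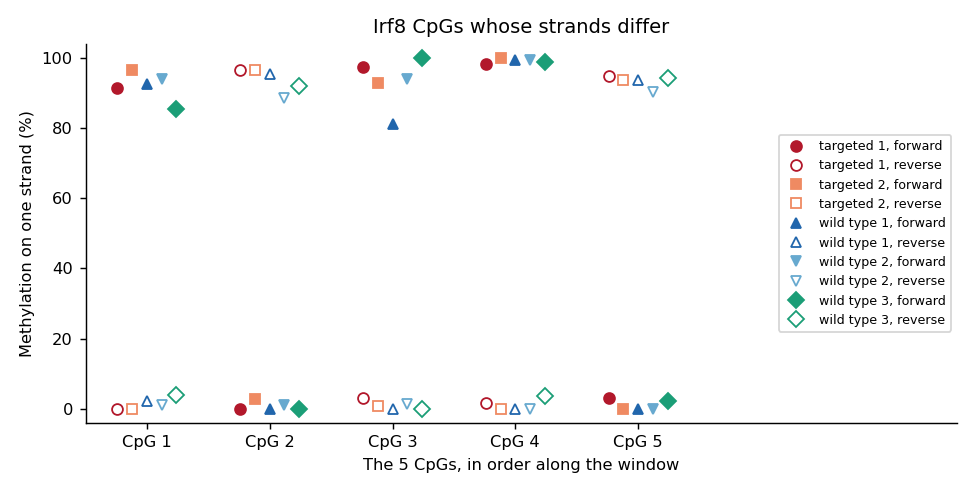
Methylation (percent) of the forward strand (filled) and the reverse strand (open) in each library at the 5 Irf8 CpGs whose strands differ by over 40 points, in order along the window. Every library shows 1 strand at 81.2% or more and the other at 3.85% or less.

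Of the CpGs of intermediate level whose strands were alike, 123284210 had 81.6% and 75.4% against 78.2%, 74.1% and 66.4%. Only 24 bp on, 123284234 had 30.7% and 28.6% against 20.2%, 25.8% and 20.9%, with both targeted libraries above all wild-type libraries. The tile that holds them, from 123284001, was at 49.2% ± 3.41 (SD, n = 2) in targeted and 43.2% ± 7.99 (SD, n = 3) in wild-type libraries and did not pass the test (edgeR adjusted p = 0.858). In the window as a whole Irf8 had 56.1% and 55.6% against 54.9%, 53.8% and 54.1%. This difference of 1.59 points had the smallest p that 2 against 3 libraries allow, 0.1 by an exact permutation test (two-sided), which cannot reach 0.05, and 0.233 adjusted over the 7 windows. With CpGs weighted by reads the levels were 68.6% and 57.3% against 58.6%, 58.0% and 53.3%, which overlap. The groups then differed by 6.35 points (exact permutation p = 0.4). Levels weighted in this way also depend on how the reads of a library are shared among its CpGs. Over all CpGs covered in each library the difference was 3.49 points, but the set of CpGs then differs between libraries.

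Among Irf8 tiles, that from 123274001 had an unadjusted p under 0.05. Its levels were 86.1% and 87.0% against 83.2%, 80.3% and 78.1%, so the groups did not overlap, and the edgeR adjusted p was 0.790. Its CpG at 123274593 had the smallest p of the window, with 96.9% ± 0.933 (SD, n = 2) against 88.2% ± 1.57 (SD, n = 3) on 59 to 124 reads, and an adjusted p of 0.876.

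The other tiles of Irf8 ranged from the lowest, that from 123259001 just before the start, at 0.293% and 1.13% against 0.511%, 1.06% and 0.572%, to the highest, from 123279001, at 94.96% and 96.3% against 95.5%, 96.8% and 96.0%. The remaining intermediate tiles overlapped between groups. That from 123268001 was at 80.1% and 72.9% against 75.4%, 74.1% and 76.1%. That from 123273001 was at 82.2% and 78.8% against 78.0%, 77.6% and 81.6%, and that from 123278001 at 63.9% and 63.1% against 64.8%, 63.0% and 64.4%. The tile from 123273001 holds the CpG at 123273010, and that from 123278001 those at 123278363 and 123278412, whose strands differ.

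Cebpb carried the unmethylated run with the most CpGs of the 7 windows. From position -342 to 1268 relative to the placed gene start, 173 CpGs in 1612 bp averaged 0.366% and 0.176% against 0.168%, 0.191% and 0.177%, which overlap. In the printed promoter, methylated counts, summed over 42 CpGs, were 24 of 3171 and 10 of 4939 against 5 of 4385, 1 of 4689 and 7 of 4872. The mean levels over CpGs, 0.514% and 0.202% against 0.158%, 0.0280% and 0.0884%, did not overlap and were not tested. Of the 193 Cebpb CpGs, 90 had no methylated read in any library.

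Upstream of the Cebpb run low and intermediate CpGs alternated, and its downstream edge was unread. The CpG at position -881 was at 97.8% ± 2.47 (SD, n = 3) in wild type, and those at -488 and -479 were at 8.73% ± 3.86 and 47.5% ± 2.96. Next, 2 CpGs from 167514022 averaged 6.37% ± 4.10, that at 167514062 was at 26.1% ± 7.80, and that at -342 was at 7.83% ± 0.396. At -479 the levels were 42.3% and 28.2% against 50.6%, 47.1% and 44.8%, so both targeted libraries were lower. At -1914 they were 31.7% and 27.0% against 38.8%, 36.2% and 46.2%, again both lower. After the run the next measured CpG, 2719 bp after the start, was at 93.3% ± 3.96 against 90.6% ± 9.19.

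The smallest p of any window CpG was that of 167514301 in the Cebpb promoter. It had 6.45% of 93 reads (95% Wilson interval 2.99% to 13.4%) in targeted library 1, 0.813% in targeted library 2 and 0% in each wild-type library, where 125 to 134 reads allow up to 2.40%. The edgeR p was 0.00355 unadjusted and 0.876 adjusted. The difference of 3.63 points was 0.813 points without targeted library 1 and 6.45 points without targeted library 2. The largest Cebpb tile difference was at 167512001, with 59.2% and 57.0% against 64.7%, 59.8% and 61.7% (edgeR adjusted p = 0.895). Its neighbour from 167513001 was at 69.6% and 56.4% against 62.5%, 58.9% and 64.7%, which overlap. The lowest Cebpb tile, from 167515001, was at 0.102% and 0.113% against 0.179%, 0.156% and 0.0908%, and the highest, from 167517001, at 93.8% and 93.5% against 96.9%, 93.7% and 93.9%. The window means differed by 0.0218 points (exact permutation p = 0.9), a value that turned negative without targeted library 1 (-0.154), wild-type library 2 (-0.0198) or wild-type library 3 (-0.0280). It was 0.491 points with CpGs weighted by reads and 0.809 points over all CpGs covered in each library, a set that differs between libraries.

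The 17 Cebpe CpGs read in all libraries formed a methylated stretch of 342 bp, from 55330550 to 55330890; a further CpG, read in 4 libraries, was intermediate. The mean was 90.2% and 90.5% against 94.0%, 91.9% and 93.0%. Both targeted libraries lay below all wild-type libraries, by 2.65 points (exact permutation p = 0.1, the smallest possible; 0.233 adjusted over the 7 windows). The tile from 55330001 differed by -2.44 points (edgeR adjusted p = 0.803). The difference kept its sign with each library left out, from -3.17 to -2.16 points.

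The targeted mean was lower at 12 of these CpGs and higher at 5. At 55330786 the levels were 69.7% and 72.2% against 89.9%, 84.1% and 87.7%, on 44 to 89 reads of the reverse strand. The difference of -16.3 points had an edgeR p of 0.0273 unadjusted and 0.876 adjusted. At 55330820 the levels were 83.3% and 84.8% against 93.5%, 96.6% and 96.3%, a difference of -11.4 points (edgeR adjusted p = 0.876), here read on the forward strand. At 55330890, the last CpG, the difference was 7.97 points the other way. In all, 4 of the 17 CpGs had both targeted libraries below all wild-type libraries and 0 had both above. Of all autosomal CpGs at 80% or more, 6.99% were lower in this sense and 12.2% higher, and of the 129 window CpGs at that level 9 (6.98%) were lower and 16 (12.4%) higher. The 4 Cebpe CpGs are among those 9; they were counted after their values were seen, and neighbours share reads.

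**Figure D4:**
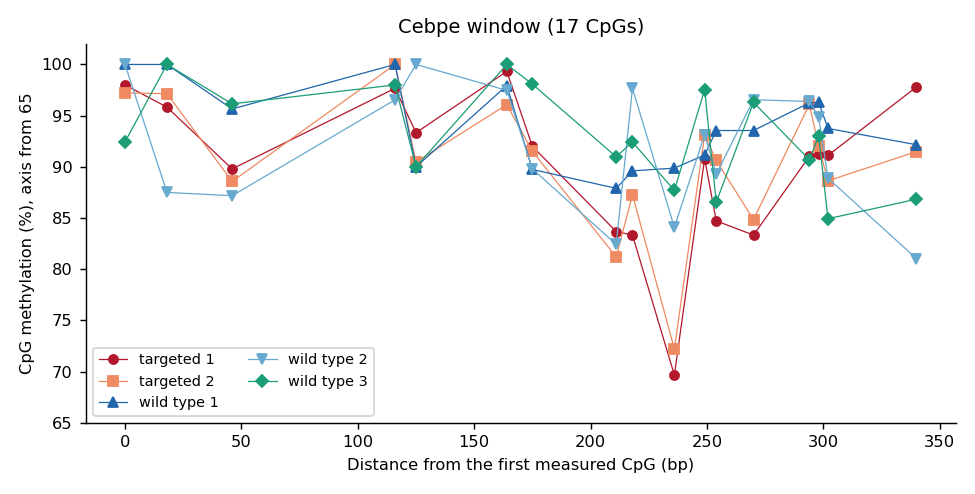
Methylation (percent, axis from 65) of the 17 Cebpe CpGs in each library against distance (bp) from the first; lines join the CpGs of a library. Both targeted libraries dip to 69.7% and 72.2% at 55330786, where the wild-type libraries have 84.1% to 89.9%.

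At the 21 CpGs read in its 35 kb window, Csf1r was methylated except at 1 short stretch. The 3 CpGs from 61268318 to 61268352 averaged 0% and 0.839% against 0.680%, 0.517% and 0.758%. The 0% rests on 99 counts summed over the 3 CpGs, which would allow up to 3.03% if independent. These CpGs lie within 36 bp, less than the read length of 50 bp. A read can therefore be counted more than once, and the limit is wider. The 5 CpGs before it, from 61263925, averaged 91.7% to 96.7% in the 5 libraries, and the 13 after it, from 61269321 to 61287743, averaged 95.4% to 96.4%. Csf1r is known for an intronic enhancer active in macrophages; whether the low stretch lies in it was not determined. The window means were 82.5% and 82.5% against 82.8%, 81.0% and 82.5%, which overlap (exact permutation p = 1.0). The difference of 0.386 points was -0.173 without wild-type library 2. With CpGs weighted by reads it was 1.69 points, from 91.8% and 77.1% against 83.1%, 79.6% and 85.5%. Such levels also depend on how reads are shared among CpGs. The unmethylated tile from 61268001 held 99 and 323 counts against 197, 256 and 175. The largest tile difference, 1.90 points at 61287001, had an edgeR adjusted p of 0.808 and was 0.947 points without targeted library 2 and 2.86 points without targeted library 1. The highest tile, from 61263001, was at 96.7% and 96.5% against 97.7%, 93.3% and 96.8%. The CpG with the smallest p, 61269878, was at 94.7% ± 3.70 (SD, n = 2) against 98.4% ± 1.43 (SD, n = 3).

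Mpo was methylated at the CpGs read in all libraries. The 14 CpGs from 87613390 to 87617835 averaged 93.7% and 93.1% against 93.4%, 92.7% and 92.0%, which overlap. The CpG at 87606650, the first of the window, was lower, at 75.0% and 68.6% against 77.8%, 75.0% and 78.6%, on 18 to 56 reads. Over the window the groups overlapped and differed by 0.247 points (exact permutation p = 0.7), or -0.250 without targeted library 1 and -0.0277 without wild-type library 3. With 4 further CpGs that some libraries lack, the difference was -2.43 points. Of those, 87606833 had 0% and 17.6%, and 87613698 had 6.67% and 15.6%, in targeted library 1 and wild-type library 3, the libraries that cover them, on 11 to 32 reads. The tile with the largest difference, from 87615001, had 95.4% and 97.4% against 95.2%, 96.7% and 92.7% (edgeR adjusted p = 0.863). Its difference of 1.55 points was 0.479 points without wild-type library 3 and 2.54 points without targeted library 1. The Mpo CpG with the smallest p, 87615235, had 97.4% and 97.5% against 93.0%, 97.8% and 93.5%, which overlap, and the lowest tile, from 87613001, had 94.1% and 92.0% against 92.8%, 92.1% and 90.6%.

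The CpGs measured in the Prtn3 and Elane window included an unmethylated and a methylated part. The 14 CpGs from 79344496 to 79345246 averaged 0.470% and 0.972% against 1.01%, 1.56% and 1.20%, both targeted libraries lower. The 10 CpGs from 79351471 to 79351589 averaged 94.3% and 94.8% against 93.8%, 93.4% and 92.7%, both targeted libraries higher. The tiles of these parts had edgeR adjusted p-values of 0.847 and 0.871. The positions of the genes within the window were not determined.

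Between these parts lay CpGs of low and intermediate level, the last at 79346136. No CpG from there to 79351471 was measured in all libraries, so the edge of the methylated part was not read. At 79345353 the levels were 51.9% and 48.1% against 60.0%, 53.2% and 70.7%, both targeted libraries lower. The CpG 15 bp on had 4.0% and 5.71% against 5.63%, 5.13% and 16.2%, on the same strand. At 79345989 the levels were 56.3% and 32.2% against 34.3%, 39.7% and 48.8%, which overlap. The tile from 79345001 had 21.8% and 15.1% against 20.2%, 16.1% and 24.3% (edgeR adjusted p = 0.942), and its difference of -1.75 points was 1.60 without targeted library 2 and 0.320 without wild-type library 3. The window means differed by -0.479 points (exact permutation p = 0.6), or 1.31 points with CpGs weighted by reads. The CpG with the smallest p, 79351589, averaged 99.2% ± 1.10 (SD, n = 2) in targeted and 93.3% ± 4.57 (SD, n = 3) in wild-type libraries (edgeR adjusted p = 0.876).

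**Figure D5:**
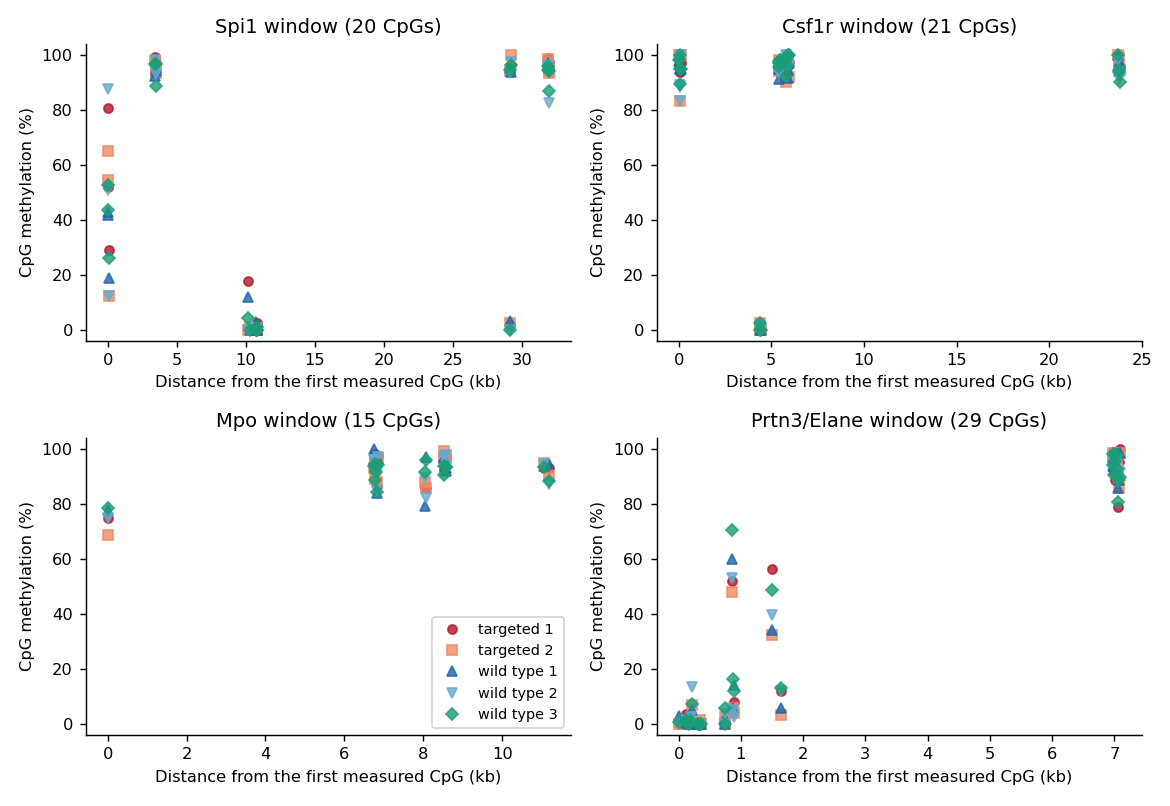
Methylation (percent) of every CpG measured in all libraries in the Spi1, Csf1r, Mpo and Prtn3/Elane windows, against distance (kb) from the first measured CpG, with a symbol for each library. Spi1, Csf1r and Prtn3/Elane hold stretches near 0% in all 5 libraries, and Mpo holds none.

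The comparison of the groups asked whether these loci change methylation in targeted LSK cells, and no window unit passed the test. By edgeR's quasi-likelihood test, adjusted over all autosomal units, 0 of 33 window tiles and 0 of 285 tested window CpGs were called; the smallest adjusted p was 0.790 for tiles and 0.876 for CpGs. Over all autosomes 0.00221% of tiles were called higher and 0.0144% lower, and 0.00251% of CpGs higher and 0.00621% lower. At an unadjusted p under 0.05, 2 window tiles were higher (6.06%, against 5.34% of all tiles) and 0 lower (0.979% of all), and 7 window CpGs were higher (2.46%, against 2.29%) and 2 lower (0.702%, against 0.676%). Leaving out targeted library 2 gave 4 window tiles at an unadjusted p under 0.05 (12.1%, against 10.2% of all tiles). Leaving out wild-type library 2 or 3 gave 0, against 5.17% and 5.10% of all tiles. limma called 0 tiles and 0 CpGs as well, with 0 tiles (against 6.48% of all) and 15 CpGs (5.26%, against 5.24% of all) at an unadjusted p under 0.05. By edgeR without wild-type library 1, 2.93% of window CpGs had an unadjusted p under 0.05, against 1.82% of all. Without wild-type library 2 or 3 the shares were 1.84% and 1.82%, against 1.79% and 1.75%. Except for the settings with 0 window tiles and the CpGs without wild-type library 1, these shares are near the background. None is a result about these genes. A p that misses the threshold does not show that the groups are alike.

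By level, the groups separated most often where CpGs were partly methylated, as on all autosomes. Of the 237 window CpGs under 20%, 5 (2.11%) had both targeted libraries above all wild-type libraries, against 4.16% of all such CpGs, and 4 (1.69%) had both below, against 1.81%. Of the 23 from 20 to 80%, 6 (26.1%) were higher, against 19.4%, and 4 (17.4%) lower, against 4.68%. Without the CpGs whose strands differ, 4 of 18 were higher (22.2%, against 20.5%) and 3 lower (16.7%, against 4.23%). Several of these CpGs lie on the same reads. Of the window tiles, 0 of 9 under 20% were higher (16% of all such tiles) and 1 lower (5.15%), 3 of 9 from 20 to 80% were higher (21.8%) and 1 lower (3.53%), and 2 of 15 at 80% or more were higher (16.6%) and 1 lower (5.65%). These tile levels include the CpGs whose strands differ.

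Targeted library 1 had the highest mean in the Spi1, Irf8, Cebpb and Mpo windows and the lowest in Cebpe. Its part in the differences was not tested. Its lead over wild-type library 1 was small in Cebpb (7.588% against 7.573%) and Mpo (92.44% against 92.40%). At window CpGs from 20 to 80% targeted library 1 averaged 50.1%, against 44.7% in targeted library 2 and 45.4%, 43.8% and 44.9% in the wild-type libraries. Over all autosomal CpGs of that class the levels were, in the same order, 58.3% and 52.5% against 52.0%, 51.4% and 52.0%. At window CpGs under 20% it had 1.10%, against 0.634% and 0.918%, 0.634% and 0.708%. At window CpGs of 80% or more it had 93.9% and targeted library 2 had 94.1%, against 94.1%, 93.1% and 93.4%. The Spi1 window was at 52.8% and 49.9% against 48.9%, 49.8% and 48.6%, a difference of 2.25 points (exact permutation p = 0.1, the smallest possible; 0.233 adjusted over the 7 windows). Without targeted library 1 it was 0.803 points, and with CpGs weighted by reads 8.16 points (exact permutation p = 0.4, the groups overlapping). Over all CpGs covered in each library, a set that differs between libraries, it was 4.58 points.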

How the data were processed

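Tables of 5 ERRBS libraries of mouse LSK cells were used, 2 targeted and 3 wild type; the targeted gene is not reported here. Per the file headers, the authors' deposited tables hold 1 entry for a CpG on a strand, giving a coverage count and the percent of reads showing C or T; the lowest deposited coverage count is 10. Per the submitters' processing notes, Bismark and mm9 were used for alignment; no Bismark version is given. Total coverage per library was 122015958 to 151634492 and median coverage per strand entry 70 to 99. Reads were counted without molecular identifiers, so Wilson intervals (95%) and the limits set by a count of 0 (3 counts of the total) cover counting error only. Counts summed over CpGs hold a read once for each CpG it covers, so limits from such sums are too narrow.

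Percent times coverage came within 0.01 of a whole read for at least 99.97% of entries and was rounded; strands were merged, the highest 0.1% of coverage per library left out, and autosomal CpGs measured in all 5 libraries kept. Tiles were 1000 bp with at least 3 CpGs. edgeR 4.0.16 (quasi-likelihood, a factor per library, common dispersion, Benjamini-Hochberg over all autosomal units) tested methylated against unmethylated counts; units with 1 state only were not tested (104 window CpGs). Calls needed an adjusted p under 0.05 and 10 points (tiles) or 25 points (CpGs). Differences are targeted minus wild type. The test was checked on simulated data. Window means were compared by an exact permutation test (two-sided, absolute difference, 10 splits). Named units were, per window: the largest tile difference, the smallest CpG p, the highest and lowest tiles, tiles from 20 to 80%, the longest low run and the placed promoter; others were named after their values were seen. The members, lists and tests were chosen with earlier results of these data known. No mm9 annotation was used here, so other myeloid genes were not counted. limma 3.58.1 used log2 ratios of the deposited counts with 1 read added; R 4.3.3 and matplotlib 3.10.9 were used.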

Additional observations from a re-analysis of the deposited data

How the results depend on the processing

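No unit of the windows was called under any alternative tried (coverage of at least 20, no upper limit, each library left out, replicate block, limma, shorter and longer tiles, tiles with at least 5 CpGs, smallest differences of 5 to 15 points, and, chosen after seeing the data, without CpGs whose strands differ by over 40 points). The sign of small differences of window means was not stable, and the cause was not tested: Csf1r was -0.0719 points at a coverage of at least 20, Mpo -2.43 points over all CpGs covered in a library, and Prtn3/Elane 1.31 points with CpGs weighted by reads. With the replicate block, Cebpb was -0.0280, Mpo -0.0277 and the tile from 79345001 0.320 points. Leaving out 1 library gave -0.173 to 0.725 for Csf1r, -0.154 to 0.198 for Cebpb, -0.250 to 0.744 for Mpo and -5.10 to 1.60 for that tile; Spi1 (0.803 to 3.71), Irf8 (1.36 to 1.90) and Cebpe (-3.17 to -2.16) kept their sign. Without the strand-discordant CpGs Irf8 differed by 1.56 points, still without overlap (exact permutation p = 0.2). Over all CpGs covered in a library, a set that differs between libraries, Cebpe differed by -3.98 points. Nothing in the labels says that equal replicate numbers pair libraries. The deviations of same-numbered libraries from their group means correlated at 0.00124 and 0.0662 over 90673 tiles. The 2 targeted deviations mirror each other, so these values are not separate checks and cannot settle the pairing. The replicate block called 0 window tiles and 0 window CpGs (at an unadjusted p under 0.05, 0 tiles against 5.74% of all, and 4 CpGs or 1.40% against 1.996% of all). Coverage was as low as 10 reads at some CpGs. Leaving out 1 library also moved the Csf1r CpG at 61269878 (-6.32 to -1.09), the Mpo CpG at 87615235 (1.79 to 4.17) and the Prtn3/Elane window (-0.947 to -0.0105). Over all autosomes, tiles called higher and lower numbered 2 and 13, against 4 and 19 with the replicate block, 3 and 21 without the strand-discordant CpGs, 1 and 1 without targeted library 1 and 0 and 0 by limma (4761 and 1096 at an unadjusted p under 0.05); CpGs numbered 19 and 47, against 11 and 25 by limma.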

Other observations

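CpGs measured in only some libraries hold a few further values. In the Spi1 window, 5 CpGs from 90924747 to 90924795, read only in wild-type library 3 on 22 to 24 reads, were at 0% to 4.55%. In the placed Irf8 promoter, 9 further CpGs from 123260239 to 123260277 were read only in that library, and all were at 0%. In the Cebpe window the CpG at 55331058, beyond the methylated stretch, was at 47.1% and 23.1% (targeted) and at 52.9% and 38.1% (wild type 2 and 3), on 13 to 42 reads.

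Steps of over 40 points between CpGs at most 50 bp apart occurred at 6 of 312 neighbouring pairs in the windows (1.92%) and at 6954 of 796219 over all autosomes (0.873%). Of the 6, 3 involve Irf8 CpGs whose strands differ, and 1 is the lone reverse-strand CpG of Spi1 at 90955616. The other two are the Irf8 pair at 123284210 and 123284234 and the pair at 79345353 and 79345368 in the Prtn3 and Elane window.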
